A study of Mus musculus with 12 samples.

Results

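Fbxw7, the gene knocked out in the study, was examined on mouse chromosome 3 (mm10, 84814990 to 84979198, forward strand) with 100 kb either side, a window of 364.2 kb from 84714990 to 85079198. Its members were all peaks that touched the window in the deposited lists. These were 53 H3K4me1 peaks and 8 H3K4me3 peaks, 61 of the 286925 peaks of the 2 marks over the 8 histone libraries. Merged where they shared at least 1 bp, they formed 25 of 94400 H3K4me1 regions and 3 of 17842 H3K4me3 regions. MLL4 libraries had no peak in the window.

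The study profiled mouse embryonic fibroblasts, cultured connective tissue cells from embryos, by Cut & Run, in which a nuclease tethered by an antibody cuts out the DNA around its target for sequencing. Cells with the genotype fbxw7 KO were set against WT cells, with antibodies to MLL4, H3K4me1 or H3K4me3 and 2 libraries per antibody and genotype, 12 in all. All groups grew in the same medium, and the labels give no strain, age, sex, allele or Cre driver. They do not name the deleted exons, nor say that paired libraries were made from different embryos or cultures, so the spread behind each p-value may be purely technical. Because the deleted part is not given, a peak inside Fbxw7 in a KO library does not contradict its label and the peaks give no check of the knockout.

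Fbxw7 encodes the substrate-binding subunit of an SCF ubiquitin ligase. Its F-box joins it to Skp1 and the cullin Cul1, and its WD40 repeats bind phosphorylated proteins such as cyclin E, Myc, Jun and the Notch1 intracellular domain, which are then ubiquitinated and degraded. Alternative first exons give the gene several isoforms that differ in where in the cell they reside. H3K4me3 is found at active promoters and H3K4me1 at enhancers and promoter flanks. MLL4, the product of Kmt2d, is an H3K4 methyltransferase.

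Of the 7 RefSeq transcripts of Fbxw7, the promoter table lists 3 starts. They are called here the upstream start (84815577), the middle start (84864145), 48.6 kb further on, and the downstream start (84952211), 136.6 kb from the first. Each promoter below is a RefSeq sequence of 300 bases (GRCm38.p6, with mm10 coordinates, forward strand), 250 before the start and 50 after it. They are shown because the H3K4me3 peaks of the gene lay at 2 of these 3 starts. Capitals mark CG dinucleotides, the CpG sites at which many active promoters are dense. The windows are chr3:84815327-84815626 (upstream), chr3:84863895-84864194 (middle) and chr3:84951961-84952260 (downstream).
Fbxw7 upstream start: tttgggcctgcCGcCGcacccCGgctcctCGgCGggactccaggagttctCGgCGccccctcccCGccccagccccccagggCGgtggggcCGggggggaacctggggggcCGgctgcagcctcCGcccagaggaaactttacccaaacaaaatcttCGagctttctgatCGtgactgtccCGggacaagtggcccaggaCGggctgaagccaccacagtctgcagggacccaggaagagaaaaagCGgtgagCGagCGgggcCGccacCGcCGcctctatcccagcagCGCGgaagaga
Fbxw7 middle start: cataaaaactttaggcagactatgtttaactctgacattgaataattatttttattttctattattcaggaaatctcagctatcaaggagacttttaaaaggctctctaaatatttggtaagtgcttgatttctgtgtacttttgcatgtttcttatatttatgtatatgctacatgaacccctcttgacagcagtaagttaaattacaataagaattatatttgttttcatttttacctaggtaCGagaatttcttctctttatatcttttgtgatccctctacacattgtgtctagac
Fbxw7 downstream start: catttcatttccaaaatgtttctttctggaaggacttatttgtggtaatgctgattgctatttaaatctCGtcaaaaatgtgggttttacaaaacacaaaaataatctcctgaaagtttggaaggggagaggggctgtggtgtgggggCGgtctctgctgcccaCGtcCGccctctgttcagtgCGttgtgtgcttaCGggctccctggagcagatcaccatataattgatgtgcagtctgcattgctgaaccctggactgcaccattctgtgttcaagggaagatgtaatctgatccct

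The upstream promoter holds 24 CpG sites and is 69.0% G and C, and 72.8% of 21019 start windows of protein-coding genes hold fewer. The downstream promoter holds 6 sites at 46.0% G and C, with 31.8% of windows holding fewer. The middle promoter holds 1 site at 29.7% G and C, with 4.46% of windows holding fewer. H3K4me3 peaks were rarest at CpG-poor windows in every library. Among windows with 20 to 24 CpG sites, 34.7% and 39.9% had a peak in the KO libraries, against 84.1% and 76.4% in the WT libraries. With 5 to 9 sites the shares were 8.95% and 10.2% in KO, against 26.7% and 22.9% in WT, and with 0 to 4 sites 1.04% and 1.39% in KO, against 4.30% and 3.24% in WT. The downstream start of Fbxw7 was therefore marked although most windows of its CpG class were not.

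**Figure D1:**
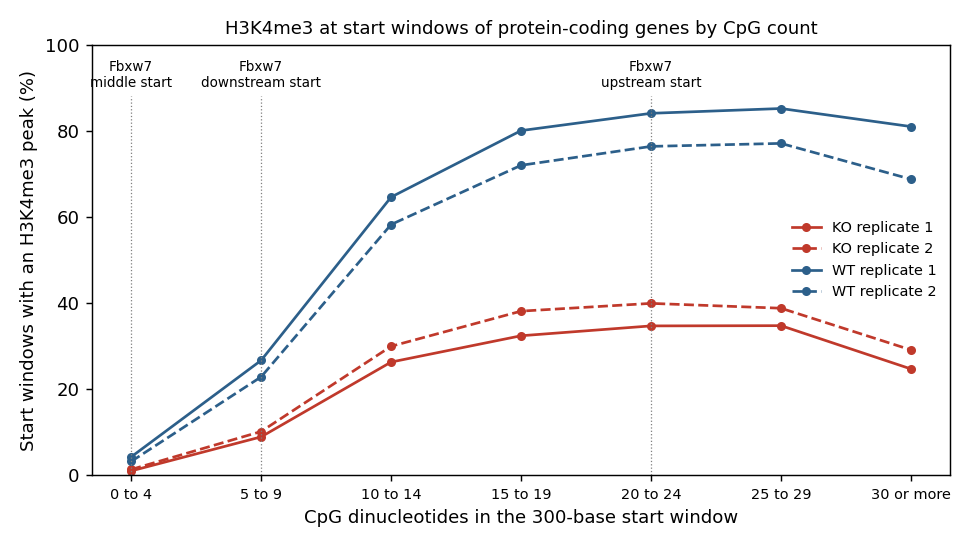
Share of start windows of protein-coding genes with an H3K4me3 peak (%), by number of CpG dinucleotides in the 300-base window, for the KO (red) and WT (blue) libraries; dotted lines place the 3 Fbxw7 starts in their class. The KO lines run below the WT lines in every class, and the downstream start sits in the class of 5 to 9 CpG sites, where 8.95% to 26.7% of windows had a peak.

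At the upstream start, 1 of 2 KO libraries and both WT libraries had H3K4me3. KO replicate 1 had no peak within 3 kb of the start. KO replicate 2 had 1 peak of 416 bp with a pileup of 15 fragments, from 47 to 462 bp after the start. WT replicate 1 had 1 peak of 2686 bp with a pileup of 72, from 1973 bp before to 712 bp after the start (84813604 to 84816289). WT replicate 2 had 2 peaks over the same stretch, of 1404 bp (pileup 35) and 1013 bp (pileup 30). The pileup is the number of fragments over the summit as the authors' peak caller gave it and is not scaled to depth. KO replicate 2 (5938102 fragments after duplicate filtering) and WT replicate 2 (6185767) had similar depth, whereas WT replicate 1 had 11319701 and KO replicate 1 had 5519477. The whole H3K4me3 lists differed in the same direction. Their median pileup was 16 and 17 in KO replicates 1 and 2, against 72 and 39 in WT replicates 1 and 2. Their median peak length was 540 and 579 bp in KO, against 1218 and 1054 bp in WT. Lower and shorter KO peaks were thus not particular to Fbxw7.

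The WT H3K4me3 at the upstream start also covered the start of Gm35486, a long non-coding RNA gene on the opposite strand, 1144 bp from the Fbxw7 start (84814433). Its summit lay on that side in WT replicate 1, 1473 bp before the Fbxw7 start. In WT replicate 2, 1 summit lay 851 bp before and the other 155 bp after it. The KO replicate 2 summit lay 143 bp after it, and neither KO library had a peak over Gm35486. The KO peak at this divergent pair of starts was therefore on the Fbxw7 side, in 1 library.

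At the downstream start the other KO library had the peak. KO replicate 1 had 1 H3K4me3 peak of 500 bp with a pileup of 10 (84952008 to 84952507), and KO replicate 2 had none within 3 kb. WT replicate 1 had 1 peak of 1635 bp with a pileup of 58 (84951866 to 84953500), and WT replicate 2 had 1 of 1649 bp with a pileup of 28 (84951593 to 84953241). The summits lay 188 bp after the start in KO replicate 1, against 196 and 251 bp in WT replicates 1 and 2. The KO summit was thus near the WT summits, in a shorter peak. The middle start had no H3K4me3 peak within 3 kb in any library.

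**Figure D2:**
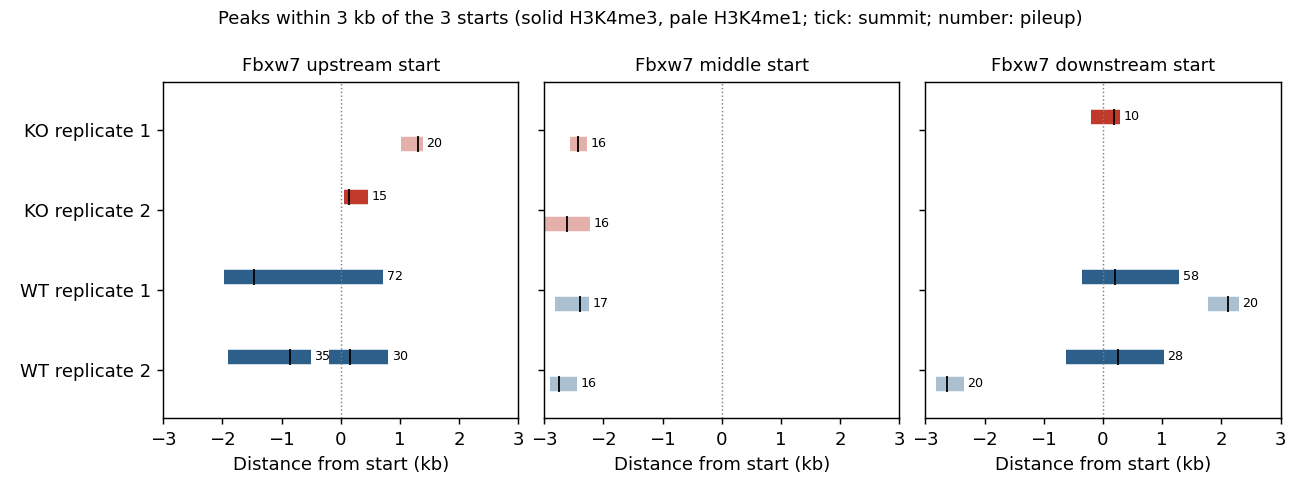
Peaks within 3 kb of the 3 Fbxw7 starts by library, as distance from the start in kb; solid bars are H3K4me3, pale bars H3K4me1, ticks the summits and numbers the pileup in fragments. The H3K4me3 bars of WT are 1013 to 2686 bp long, against 416 and 500 bp in KO, and each KO library has a bar at a different start.

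Each KO library thus carried 1 H3K4me3 peak at Fbxw7, and not at the same start. Of the 9282 start windows of protein-coding genes with H3K4me3 in both WT libraries, 27.3% had a peak in 1 of 2 KO libraries, as both of these Fbxw7 starts did, 40.8% in neither and 31.9% in both. A presence in 1 KO library was thus common over the genome. The KO peaks were weak in their own lists, at the 15.7th percentile by −log10 q in KO replicate 1 and the 24.8th in KO replicate 2, and by length also below the middle of their lists. The WT peaks at the starts lay between the 21.2nd percentile (the shorter peak at the upstream start, replicate 2) and the 42.6th (the downstream start, replicate 1), below the middle of their lists too. By length they stood higher, between the 47.2nd percentile (the same shorter peak) and the 97.5th (the upstream peak of replicate 1), and all 7 peaks at the starts, KO and WT, ranked higher by length than by −log10 q.

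Over the whole window, H3K4me3 peaks numbered 1 and 1 in KO, against 3 and 3 in WT. Beside the promoters, the only other peak was 1 of 656 bp in WT replicate 1, with a pileup of 18, inside the long non-coding RNA gene Gm40079 (84745711 to 84746366). Bases under H3K4me3 peaks came to 500 and 416 bp in KO, against 4977 and 4066 bp in WT. The mean was 458 ± 59.4 bp in KO and 4522 ± 644 bp in WT (SD, n = 2 libraries; exact permutation p = 0.333, two-sided). Inside the gene the peaks numbered 1 and 1 in KO, against 2 and 3 in WT (exact permutation p = 0.333). The groups did not overlap in any of these 3 measures, and 0.333 is the smallest p that 2 against 2 libraries allow, so none can pass 0.05 and none is called a fall.

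Lower H3K4me3 in both KO libraries than in both WT libraries was common over the genome. Of 18049 protein-coding genes with a peak within 100 kb of the gene, 97.6% had fewer bases under H3K4me3 in both KO libraries, and 48.0% had fewer peaks. Both had more bases in 0.0277% and more peaks in 1.68%. Inside the gene, both KO libraries had fewer peaks in 21.6% of 13037 genes and more in 0.874%. For bases, the direction at Fbxw7 is therefore that of nearly all genes. With the full lists, the KO over WT ratio of bases was 0.101, against a median of 0.363 and quartiles of 0.260 and 0.453 over 8995 gene windows whose WT mean lay between 0.5 and 1.5 times that of Fbxw7, and 4.09% of those windows had a lower ratio. Leaving out 1 library at a time, the ratio was 0.0920 to 0.113 and that share 3.52% to 8.08%, the highest without KO replicate 2. For peak counts Fbxw7 stood less far out: the ratio was 0.333 in the window, against a median of 0.714, with 10.5% of windows lower, and 0.4 inside the gene, against a median of 0.5, with 38.7% of genes lower. Neighbouring gene windows overlap, so they are not independent, and the ratios are given as a description. Since the assay pools cells, fewer cells with the mark and less of it per cell cannot be told apart.

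Both the peak count and the bases depended on how the lists were matched. With the 10397 best peaks by −log10 q of each H3K4me3 list, as many as the shortest holds, 1 and 1 peaks were left in KO, against 1 and 0 in WT, because the lowest −log10 q kept was 2.01 and 3.66 in KO, against 26.0 and 13.0 in WT. The peak left in WT was that at the downstream start in replicate 1. Bases were then 500 and 416 bp in KO, against 1635 and 0 bp in WT, so the groups overlapped (means of 458 bp in KO and 817.5 bp in WT, exact permutation p = 1.0). The KO over WT ratio of bases was 0.560 instead of 0.101, against a median of 0.477, and 60.6% of 1172 gene windows of similar WT bases had a lower ratio, instead of 4.09%. Over the genome, both KO libraries still had fewer bases than both WT libraries in 92.4% of 17171 gene windows and more in 0.565%. The low place of Fbxw7 among genes was therefore found with the full lists and not with lists of equal length. The sets of windows differed as well: the 1172 were matched to a WT mean of 817.5 bp and the 8995 of the full lists to 4521.5 bp. The change in the share is thus not due to list length alone. Peaks that reached a −log10 q of 10 numbered 0 and 0 in KO, against 3 and 2 in WT. Few KO peaks reached it anywhere: 1504 of 10397 in replicate 1 and 2295 of 11281 in replicate 2. In WT, 14399 of 17460 and 11906 of 16078 peaks did. This count therefore does not set Fbxw7 apart.

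**Figure D3:**
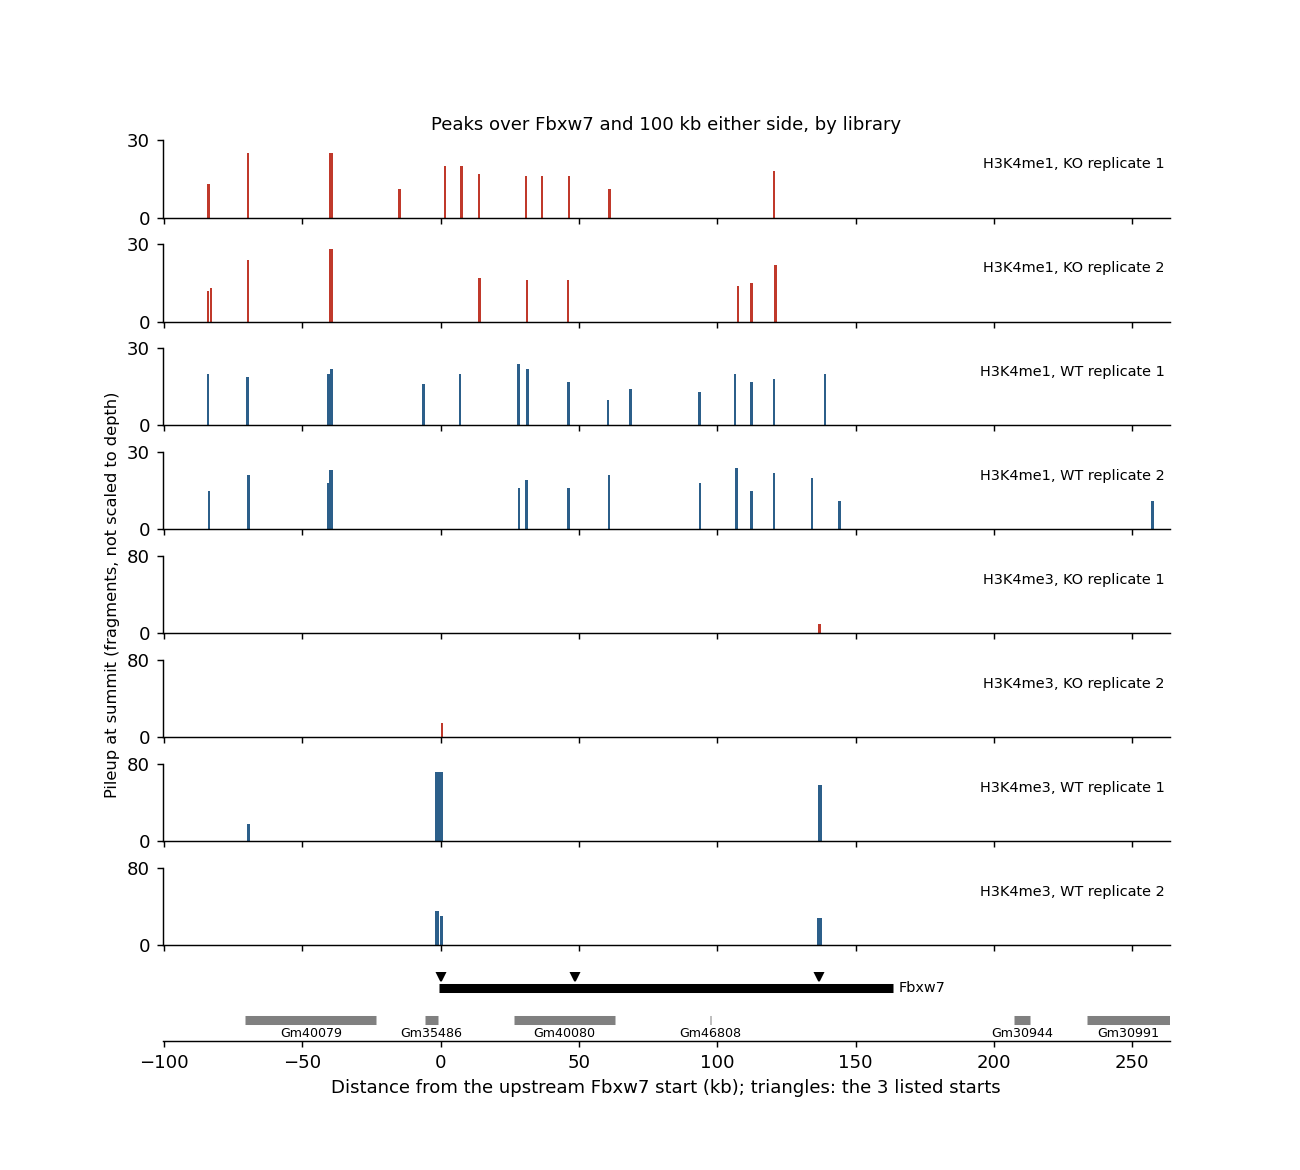
Peaks over Fbxw7 and 100 kb either side in the 8 histone libraries, KO (red) above WT (blue) for each mark, by distance from the upstream start (kb) and pileup (fragments, not scaled to depth; bars drawn at least 0.9 kb wide); genes are bars at the bottom and triangles the 3 starts. H3K4me1 peaks spread over the gene and its upstream side with 1 peak on the downstream side, and H3K4me3 stands at the upstream and downstream starts.

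H3K4me1 formed many small peaks over the gene and its upstream flank. The window held 12 and 10 peaks in KO, against 16 and 15 in WT. This is a mean of 11 ± 1.41 in KO and 15.5 ± 0.707 in WT (SD, n = 2 libraries; exact permutation p = 0.333, two-sided). Inside the gene there were 8 and 6 in KO, against 11 and 10 in WT (7.0 ± 1.41 in KO and 10.5 ± 0.707 in WT, exact permutation p = 0.333). They covered 7535 and 6059 bp of the window in KO, against 8748 and 9191 bp in WT (exact permutation p = 0.333). Both KO libraries were below both WT libraries in all 3 measures. Among peaks that reached a −log10 q of 10 the groups overlapped, with 1 and 3 peaks in KO, against 0 and 2 in WT. They covered 774 and 2544 bp in KO, against 0 and 1641 bp in WT. The KO means were then the higher, from few peaks (exact permutation p = 0.667 for each). Over the whole lists, 6909 and 4674 peaks reached that cutoff in KO, against 8399 and 6466 in WT. Filtered depth was 13627038 and 12611409 fragments in KO, against 12607690 and 11604131 in WT. KO replicate 2 and WT replicate 1 were thus of nearly equal depth.

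That order was also frequent elsewhere. Of 19276 protein-coding genes with an H3K4me1 peak within 100 kb, both KO libraries had fewer peaks in 23.6% and fewer bases in 38.1%, against more peaks in 9.35% and more bases in 11.6%. Inside the gene, both had fewer in 13.2% of 11656 genes and more in 7.03%. The KO over WT ratio at Fbxw7 was 0.710 for peaks in the window, against a median of 0.875 over 7555 windows of similar WT count, and 19.8% of these had a lower ratio. For bases it was 0.758, against a median of 0.833, with 34.6% of windows lower, and for peaks inside the gene 0.667, against a median of 0.917, with 14.1% of 1229 genes lower. With equal list lengths the ratio of H3K4me1 bases was 0.807, against a median of 0.852, and both KO libraries had fewer bases in 35.7% of 19176 gene windows and more in 14.8%. With the full lists, Fbxw7 was below the lower quartile of these genes for the counts (0.75 and 0.765) and between the quartiles for bases (0.704 and 0.976).

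**Figure D4:**
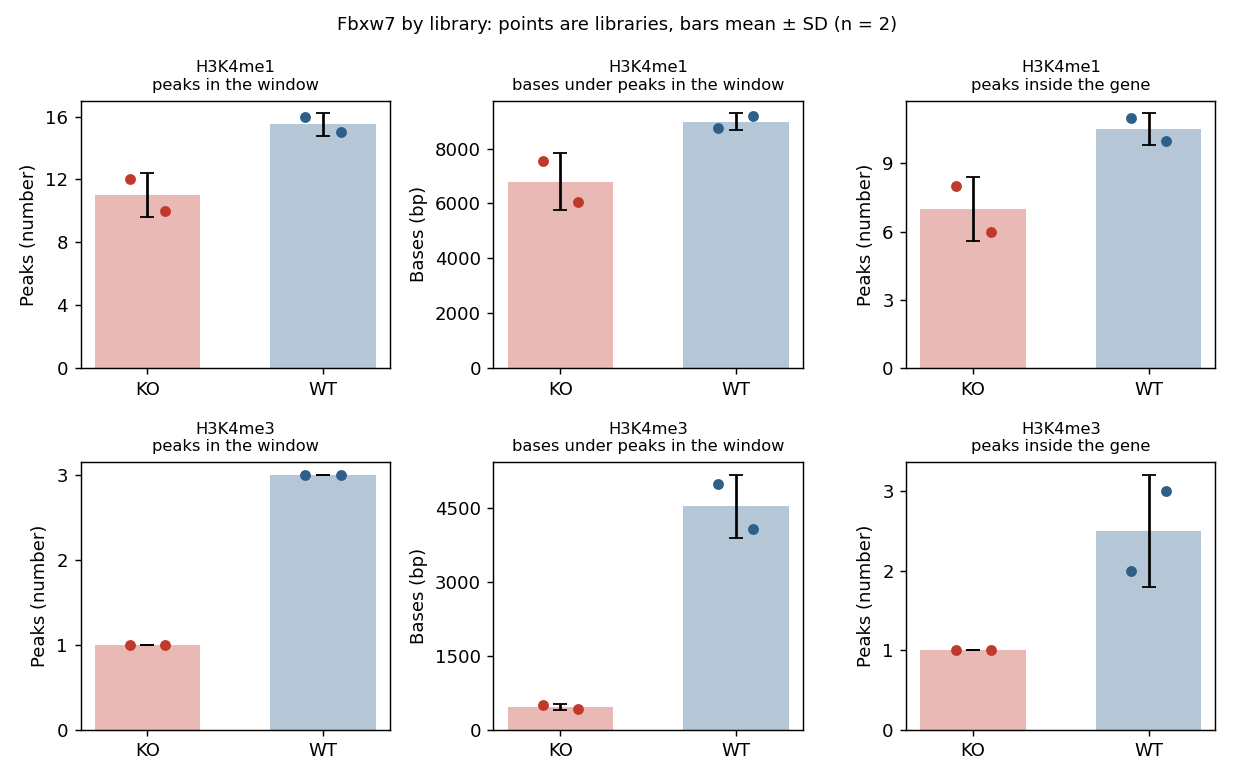
H3K4me1 (top) and H3K4me3 (bottom) at Fbxw7 in KO (left) and WT (right): number of peaks in the window, bases under them (bp) and number of peaks inside the gene; points are libraries, bars the mean and error bars the SD (n = 2). KO points lie below WT points in all 6 panels, with the widest gap in H3K4me3 bases, 416 and 500 bp against 4066 and 4977 bp.

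The peaks were not spread evenly. Of the 25 H3K4me1 regions, 17 lay in the gene, 7 in the 100 kb before it and 1 in the 100 kb after it, the last in WT replicate 2 alone. No H3K4me1 peak touched the 300-base window of any of the 3 starts in any library. Around the middle start, which had no H3K4me3, every library had 1 H3K4me1 peak ending 2226 to 2455 bp before the start (merged region 84861149 to 84861919). Within 3 kb of the upstream start the only H3K4me1 peak was that of KO replicate 1, 374 bp from 1012 bp after the start, where KO replicate 1 had no H3K4me3. Within 3 kb of the downstream start there was none in KO, against 1 in each WT library, on opposite sides of the H3K4me3 peak. These WT peaks were separate regions, each found in 1 library only, as were 36.6% of all H3K4me1 regions.

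Regions with H3K4me1 in all 4 libraries numbered 6 (24.0%, against 28.7% of all regions), and the 5 with the highest mean pileup rank are named. The strongest was 40.5 kb before the upstream start, inside Gm40079 (84775072 to 84776718). Its pileup was 25 and 28 fragments in KO, against 22 and 23 in WT, at the 64.0th to 89.7th percentile of the lists. Next came 84745305 to 84746419, near the start of Gm40079, with 25 and 24 in KO, against 19 and 21 in WT. This was also the site of the H3K4me3 peak of WT replicate 1. In these 2 flank regions both KO pileups were above both WT ones, on a scale not adjusted for depth. The third constant region of that flank and the weakest of the 6, 84730904 to 84731954, went the other way, with 13 and 12 in KO, against 20 and 15 in WT. How often the pileups of constant regions part by genotype over the genome was not counted. Neither order can therefore be called particular to Fbxw7.

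Inside the gene, the region 84935536 to 84936413, 120 kb past the upstream start, had a pileup of 18 and 22 in KO, against 18 and 22 in WT, the same values in both genotypes. The region 84846029 to 84846962 had 16 and 16 in KO, against 22 and 19 in WT, and lay also within the antisense long non-coding RNA gene Gm40080. The region before the middle start had 16 and 16 in KO, against 17 and 16 in WT. Of these 3 sites in the gene body, the pileups of the genotypes were apart only at 84846029 to 84846962, where KO was lower. Here too the share of such regions over the genome was not counted. Since exon positions were not used here, regions inside the gene are not split into exon and intron.

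H3K4me1 was WT-only, with a peak in both WT libraries and neither KO library, at 3 of 25 regions (12.0%), against 6.63% of all regions. These were 84774543 to 84774843 in Gm40079 (pileup 20 and 18 in WT), 84843321 to 84843702 in the gene and Gm40080 (24 and 16) and 84908627 to 84909361 in the gene (13 and 18). The first adjoined the strongest constant region, whose KO peaks began at 84775265 and 84775072. KO-only was 1 region of 25 (4.0%), against 5.37% of all regions, at 84828977 to 84829556, 13.4 kb past the upstream start, with a pileup of 17 and 17 in KO. No H3K4me3 region was KO-only or WT-only, against 0.056% and 21.7% of all H3K4me3 regions. These counts moved with the settings. Over the alternatives run, WT-only H3K4me1 regions numbered 0 to 8, KO-only ones 1 to 5 and WT-only H3K4me3 regions 0 to 2, the last being 1 whichever library was left out. Without 1 library the rule asks about fewer libraries, which by itself tends to raise the counts. Over the alternatives with all 4 libraries, WT-only H3K4me1 regions numbered 0 to 4, KO-only ones 1 in each and WT-only H3K4me3 regions 0 to 2.

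The remaining H3K4me1 regions were split between libraries. In 3, both WT libraries and 1 KO library had a peak, namely 84875554 to 84876800 (KO replicate 1), 84921432 to 84922855 and 84927418 to 84927986 (KO replicate 2 for both). In no region did both KO libraries and 1 WT library have a peak. Regions in 3 libraries made up 12.0% of the window, against 14.6% of all regions. Another 12 (48.0%, against 36.6% of all regions) were found in 1 library only, 5 in a KO and 7 in a WT library. In all, 7 regions were in both KO libraries and 12 in both WT libraries. The genome shares of these patterns were not split by genotype, so the tilt toward WT cannot be called particular to Fbxw7.

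**Figure D5:**
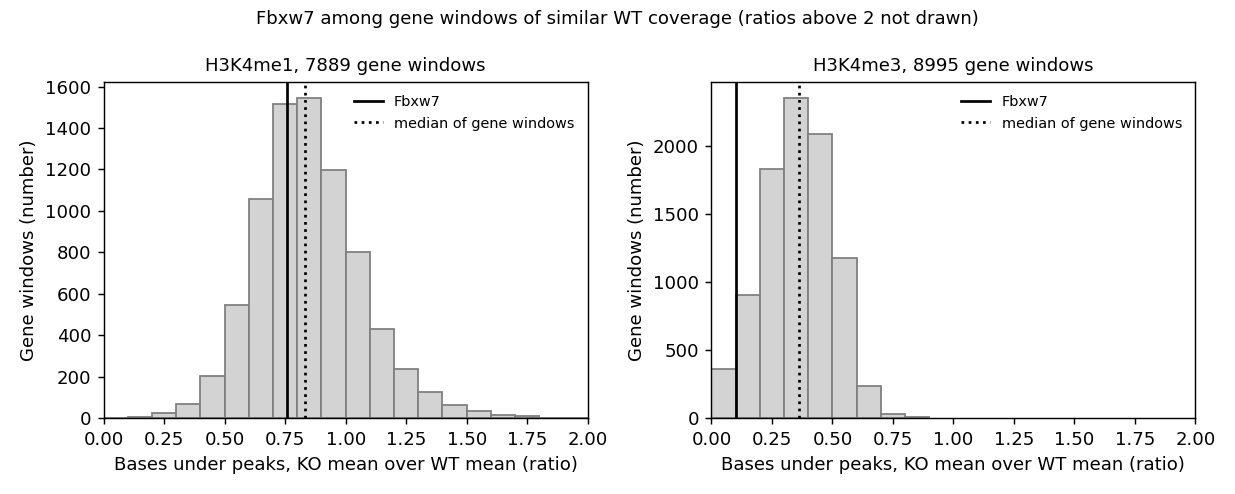
Distribution of the KO over WT ratio of bases under peaks over windows of protein-coding genes with 100 kb either side and a WT mean of 0.5 to 1.5 times that of Fbxw7, for H3K4me1 (left, 7889 windows) and H3K4me3 (right, 8995); the solid line is Fbxw7, the dotted line the median. Fbxw7 lies near the median for H3K4me1 (0.758 against 0.833) and in the low tail for H3K4me3 (0.101 against 0.363) with the full lists plotted here.

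Chromosome 3 as a whole held a slightly smaller share of the peaks of both marks in both KO libraries than in both WT libraries. It held 5.87% and 5.79% of H3K4me1 peaks in KO, against 6.19% and 6.16% in WT, and 4.67% and 4.65% of H3K4me3 peaks in KO, against 5.01% and 5.01% in WT. Mean pileup on it over that on other autosomes was 0.912 and 0.919 in KO, against 0.931 and 0.925 in WT, for H3K4me1, and 0.889 and 0.899 in KO, against 0.912 and 0.939 in WT, for H3K4me3. How many other chromosomes part the genotypes in this way was not counted, so the order cannot be called particular to chromosome 3. The part of these differences in the values at Fbxw7 was not tested. The nearest MLL4 peak lay 10481 kb from the window in both KO libraries and WT replicate 2, and 35638 kb away in WT replicate 1. The MLL4 lists held 49 and 40 peaks in KO, against 60 and 69 in WT. The nearest protein-coding genes lay 110.4 kb before (Tmem154) and 594.9 kb after (Gatb) Fbxw7, so no other protein-coding gene reached the window.

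H3K4me3 at a gene end (within 1 kb of either end) was then counted for genes of the SCF machinery. The list of 17 held genes of the Fbxw7 ligase and its regulators. It also held Skp2, Btrc and Fbxw11, F-box genes of other SCF ligases and not partners of Fbxw7. Of the 17, 15 had H3K4me3 in at least 1 library, against 55.5% of 21627 protein-coding genes. The mark was in all 4 libraries at 11 of those 15, Btrc and Fbxw11 included, near the 63.1% of protein-coding genes with a peak. Among the 11 were Rbx1, the RING subunit, Nedd8, which modifies cullins, the E2 gene Cdc34, the kinase gene Gsk3a and the deubiquitinase gene Usp28. The cullin gene Cul1 and the kinase gene Gsk3b were WT-only, 2 of 15 with a peak, against 15.3% of genes. Skp1, the adaptor, had a peak in WT replicate 1 only and Cops5, a deneddylase subunit gene, in KO replicate 2 and both WT libraries. Skp2 and Dcun1d1 had none, and no gene was KO-only (0.0% of genes). H3K4me1 lay at a gene end of 3 of the 17, against 28.1% of all protein-coding genes, and of these 3 Ube2m, the E2 gene for Nedd8, was WT-only (6.31% of genes with a peak).

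Of 14 genes of known substrates, 12 had H3K4me3 in at least 1 library and 7 of these in all 4 (Ccne2, Notch1, Mtor, Srebf2, Klf5, Cebpa and Kmt2d), against the same 55.5% and 63.1%, while Hif1a was WT-only and Mcl1 and Srebf1 had no peak. Ccne1 and Mycn had it in KO replicate 2 and both WT libraries, Myc in KO replicate 1 and both WT libraries, and Jun in WT replicate 1 alone. H3K4me1 was at a gene end of 9 of the 14, against 28.1% of all genes, in all 4 libraries at Srebf2 (18.2% of genes with a peak) and KO-only at Cebpa (5.19%). Neither list was tested.

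The genes whose 8 peak counts over the gene body came closest to those of Fbxw7 were Kat6b, a histone acetyltransferase gene, Rnf144b, a ubiquitin ligase gene, the kinase genes Camk1d and Nek7, and the receptor gene Notch2, with Euclidean distances of 2.0 to 2.45 peaks over 8 libraries and ties broken by gene length. Kat6b had 8 and 6 H3K4me1 peaks in KO, against 11 and 11 in WT, and 1 and 2 H3K4me3 peaks in KO, against 3 and 2 in WT. Notch2, also on chromosome 3, had 8 and 8 H3K4me1 peaks in KO, against 11 and 9 in WT. Fibroblast genes checked the label of the cells: 13 of 14 had H3K4me3 in at least 1 library, Pdgfra being the exception, against 55.5% of all genes. It was in all 4 libraries at 6 of the 13 and WT-only at 3, Col1a2, Lum and Twist2, against 63.1% and 15.3% of genes with a peak. Of 18 markers of other lineages, 13 had no H3K4me3 at a gene end, among them Pou5f1, Nanog, Sox2, Myod1, Cdh1, Ptprc and Pecam1. The other 5, Kdr, Spi1, Epcam, Tubb3 and Map2, had it in at least 1 library, and Kdr was the only one of them with H3K4me3 in a KO library.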

How the data were processed

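Peak lists of 12 Cut & Run libraries were used, 8 of them for histone marks. The submitters' processing notes name mm10, Bowtie2, SAMtools 1.5, bedtools, MACS2, deepTools and HOMER 4.10. Per the file headers, MACS 2.1.0.20150731 was run on each library alone in paired-end mode, with a q cutoff of 0.01, no control and a local background over 10000 bp. At most 2 duplicate fragments per position were kept in the H3K4me1 lists and in H3K4me3 WT replicate 1, and 1 in the others, so saturation of the pileup differs between them. The deposited pileup signal is a raw number of fragments. The authors' −log10 q, like the −log10 p and the fold ratio over local background, is relative to the same library and depends on depth, so sites of equal strength can pass in 1 list and fail in another. Filtered depth was 4435103 to 13627038 fragments.

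Peaks on 19 autosomes and X were counted where they shared at least 1 bp with an interval, and merged per mark. Genes came from the RefSeq table of GRCm38.p6 and promoters from its sequence table, where 3 starts matched Fbxw7. Libraries were compared by an exact two-sided permutation test over 6 assignments. Counting was tested on simulated peaks (Python 3.11.15, pandas 2.3.3). By rule, the text names Fbxw7, its neighbours, 2 pathway lists, the 5 genes nearest in peak counts, all KO-only, WT-only and H3K4me3 regions and 5 constant H3K4me1 regions. Members and lists were chosen with earlier results of these data known. Alternatives were a −log10 q of 10, equal list lengths, windows of 50 and 200 kb, an overlap of 50%, a replicate block and leaving out each library.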

Additional observations from a re-analysis of the deposited data

How the results depend on the processing

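Of 56 alternative values of the 6 tested measures, 52 kept the sign of KO minus WT and 4 turned it. No p could pass 0.05 in any. Many of these signs were fixed beforehand, so the tally is no measure of robustness. The replicate block repeats the same difference. Leaving out 1 library cannot turn a sign where both KO values lie below both WT values, as in all 6 measures. At a −log10 q of at least 10, H3K4me1 in the window was higher in KO by 1.0 peak (2.0 in KO, against 1.0 in WT) and by 838.5 bp. The groups overlapped in both (exact permutation p = 0.667 for each). With equal list lengths H3K4me3 was higher in KO by 0.5 peaks in the window and by 0.5 inside the gene (exact permutation p = 1.0 for each); fewer WT peaks then stay in the list. The H3K4me3 difference in bases kept its sign there but shrank to −359.5 bp (458 bp in KO and 817.5 bp in WT, exact permutation p = 1.0), against −4063.5 bp with the full lists. Leaving out 1 library, the difference was −5.5 to −3.5 H3K4me1 peaks in the window, −2910.5 to −1434.5 bp and −4.5 to −2.5 peaks inside the gene, and −2.0 to −2.0 H3K4me3 peaks, −4519 to −3608 bp and −2.0 to −1.0 inside the gene.

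Of 36 alternative region counts, 13 moved by more than 1.5 times. Most of these 13 came from leaving out 1 library, where the rule asks about fewer libraries and counts tend to rise for that reason. WT-only H3K4me1 regions numbered 0 at the stricter cutoff and 4 to 8 without 1 library, 5 without KO replicate 2, 6 without WT replicate 1 and 8 without WT replicate 2. KO-only ones numbered 1 to 5 without 1 library (2 without KO replicate 1, 5 without KO replicate 2). WT-only H3K4me3 regions, 0 as reported, numbered 2 at the stricter cutoff, 2 when peaks had to cover 50% of a region, 1 with a window of 200 kb, and 1 whichever library was left out. For the share of gene windows with a lower H3K4me3 ratio, 4.09% as reported, the alternatives were chosen after seeing the data. The share was 60.6% with equal list lengths, over a different set of windows, and 8.08% without KO replicate 2.

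With the replicate block the differences were the same, −4.5 and −3.5 H3K4me1 peaks and −2172.5 bp, and −2.0 and −1.5 H3K4me3 peaks and −4063.5 bp, with an exact sign-flip p of 0.5 for each, the smallest that 2 pairs allow. Replicate deviations of KO and WT over 1 Mb bins had a correlation of −0.0088 for H3K4me1 and 0.0085 for H3K4me3, and nothing in the labels ties equal numbers to a shared embryo or day.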

Other observations

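Of 802 protein-coding genes with listed starts at least 10 kb apart, 116 (14.5%) had H3K4me3 in both WT libraries at such a pair of starts. In 38 of them (32.8%) neither KO library had a peak at the first or the last such start, and in 8 (6.90%) both libraries had one at both. In 4 genes (3.45%) each KO library had a peak at 1 of the 2 starts, and not the same one: Celf2, Eaf2, Net1 and Fbxw7. This grouping was made after the values at Fbxw7 were seen, and Fbxw7 is counted in it, so the share is a description.

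The long non-coding RNA gene Gm40079, whose start lies 70.6 kb before the upstream Fbxw7 start, carried 2 and 2 H3K4me1 peaks in KO, against 3 and 3 in WT. The additional peak in both WT libraries was the WT-only region 84774543 to 84774843 already named. Both KO libraries had fewer peaks inside 13.2% of protein-coding genes with a peak. That share was not counted for non-coding genes. Gm40080, which overlaps Fbxw7, carried 4 and 2 in KO, against 4 and 4 in WT. The other genes annotated in the window, Gm46808 and Gm30944, had no peak of either mark in any library, and Gm30991 had 1 H3K4me1 peak in WT replicate 2.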
